A study of Mus musculus with 9 samples.

Results

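The calcineurin, NFAT and CaMKII branch of cardiac hypertrophy signalling was followed through 10 genes chosen by name: Rcan1, Ppp3ca, Ppp3cb, Nfatc1, Nfatc2, Nfatc3, Nfatc4, Camk2d, Hdac5 and Hdac9. All 10 were present among the 41710 gene names of the deposited tables, and all 10 were among the 15504 genes with enough reads to be tested. Hearts came from male mice of the FVB/N strain at an age of 8 months, with n = 3 libraries in each of 3 groups. Tg-RKIP mice express RKIP (gene symbol Pebp1), an inhibitor of GRK2, in the myocardium from the alpha-MHC promoter. The other group is labelled Tg-GRK2, for a GRK2 transgene whose promoter is not given in the sources used here. The FVB mice carry no transgene and share the strain, sex and age of the others. Whole hearts were pulverised for RNA, so cells of the myocardium and all other cells of the heart contributed to each value.

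The libraries held 25458108 to 33447654 reads on transcripts. Mitochondrial transcripts took 11.5% to 11.8% of the reads in Tg-RKIP, 22.4% to 22.9% in the Tg-GRK2-labelled libraries and 22.9% to 23.2% in FVB. Pebp1, the gene of the RKIP transgene, had 15967 to 16371 TPM in Tg-RKIP hearts and 321 to 330 TPM in FVB hearts, summed over its transcripts. The study reported a smaller fold rise for this gene, and the difference was not examined. Grk2 had 54.8, 55.9 and 58.4 normalized CPM in the Tg-GRK2-labelled libraries and 52.0, 56.2 and 54.7 in FVB, so the groups overlapped (log2 fold change 0.05, adjusted p = 0.354, edgeR). That group is therefore named by its label throughout. The sample titles number the libraries of each group as replicates. Libraries of a group differed by 1.37 to 1.52 times the variance that counting alone gives. The p-values measure the spread between these libraries, which may be largely technical.

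Calcineurin is a calcium- and calmodulin-dependent phosphatase, built from a catalytic A subunit (Ppp3ca, Ppp3cb or Ppp3cc) and a regulatory B subunit. It dephosphorylates NFAT transcription factors, which then enter the nucleus and drive hypertrophic genes together with partners such as GATA4 and MEF2. CaMKII, whose main cardiac form is encoded by Camk2d, acts in parallel on the class IIa histone deacetylases, among them HDAC4, HDAC5 and HDAC9. Phosphorylated HDAC4 and HDAC5 leave the nucleus and release MEF2. Rcan1 encodes a protein that binds and regulates calcineurin. Its transcript that starts at exon 4 is a classical NFAT target and is widely read as an indicator of calcineurin activity, whereas the transcript that starts at exon 1 has a separate promoter.

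The sequences on which the transcript results turn are those of the Rcan1 starts and of one Camk2d exon. For the 10 genes, RefSeq promoter windows (build GRCm38.p6) were matched for 8, with 12 windows in all. Both Rcan1 windows are on the minus strand, the 250 bases before the exon 1 start being chr16:92466170-92466419 and those before the exon 4 start chr16:92400079-92400328. Capitals mark GGAAA, the core bound by NFAT proteins, and TGACTCA, the AP-1 motif, on either strand. These motifs were chosen after the windows had been read.
Rcan1, before exon 1: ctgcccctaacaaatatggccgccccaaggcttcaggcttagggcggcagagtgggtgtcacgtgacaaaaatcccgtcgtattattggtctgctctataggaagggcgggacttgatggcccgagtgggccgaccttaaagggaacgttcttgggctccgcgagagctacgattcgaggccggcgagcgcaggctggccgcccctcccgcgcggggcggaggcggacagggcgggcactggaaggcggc
Rcan1, before exon 4: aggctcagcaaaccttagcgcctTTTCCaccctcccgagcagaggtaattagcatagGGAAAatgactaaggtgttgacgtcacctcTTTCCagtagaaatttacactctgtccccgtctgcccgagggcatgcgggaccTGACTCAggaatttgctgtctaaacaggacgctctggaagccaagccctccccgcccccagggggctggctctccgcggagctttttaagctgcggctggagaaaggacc
The window before exon 4 held 3 matches to GGAAA or its complement TTTCC, 227, 193 and 163 bases before the start, and 1 match to TGACTCA at 110 bases. The window before exon 1 held none of these letters. Of all 32851 windows of the same length in the table, 55.6% held at least 1 match to the NFAT core and 6.39% held 3 or more, 4.46% held the AP-1 motif on either strand, and 0.320% held both 3 or more NFAT cores and an AP-1 motif. The cut-off of 3 and the combination match what the exon 4 window itself holds, so its place among the 0.320% is no test. Short motifs are common, and a match describes letters and not a bound site. The other windows with 3 NFAT core matches were those of Nfatc4 and Ppp3cb and 1 of the 2 windows of Nfatc2, and none of the other members' windows held the AP-1 motif.

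The 2 first exons also give Rcan1 proteins with different amino termini. Their coding parts are printed from GENCODE M21 transcripts (build GRCm38, minus strand), with the start codon in capitals. The exon 1 part is chr16:92465833-92466078, with 246 bases, and the exon 4 part is chr16:92399896-92399982, with 87 bases. The last sequence is the 33-base exon of Camk2d (chr3:126802937-126802969, plus strand), whole in capitals because it is the variable exon that holds the nuclear localisation signal of the delta-B form of CaMKII.
Rcan1, coding part of exon 1: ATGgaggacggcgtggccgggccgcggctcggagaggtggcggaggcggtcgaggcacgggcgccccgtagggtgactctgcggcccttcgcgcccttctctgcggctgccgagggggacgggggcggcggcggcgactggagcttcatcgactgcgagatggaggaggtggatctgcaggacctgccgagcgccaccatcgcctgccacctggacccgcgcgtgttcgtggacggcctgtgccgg
Rcan1, coding part of exon 4: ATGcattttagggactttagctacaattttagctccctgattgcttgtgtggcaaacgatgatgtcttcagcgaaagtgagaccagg
Camk2d, 33-base exon: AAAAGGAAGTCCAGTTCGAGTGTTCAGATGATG

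Positions from here on are those of the deposited tables, on build GRCm39 per the submitters' processing notes. Values per library are normalized CPM, that is, reads relative to the size of the library, scaled by TMM, a method that centres the bulk of genes between libraries. Fold changes come from quasi-likelihood fits of the gene counts in edgeR, with Benjamini-Hochberg adjustment over all 15504 genes, and a gene was called when its adjusted p was under 0.05.

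Between Tg-RKIP and FVB hearts, 8 of the 10 genes differed past the threshold, 3 higher and 5 lower. In this comparison 73.9% of all genes tested passed, 36.8% higher and 37.1% lower, so the count itself does not set the members apart, and single genes are described by size and direction. Their median log2 fold change was -0.06, beside 0.01 over all genes. Between the Tg-GRK2-labelled libraries and FVB, 6 members passed, 5 higher and 1 lower, where 24.5% of all genes passed, 12.2% in each direction. Their groups were apart for these 6, as for 37.1% of all genes. The members' median was 0.09 there and that of all genes 0.00. Between Tg-RKIP and the Tg-GRK2-labelled libraries, 8 passed, 3 higher and 5 lower, where 74.5% of all genes passed, 37.9% higher and 36.6% lower. The groups were apart for these 8 and for 76.4% of all genes. The 3 comparisons share libraries and are not independent of each other. For the 8 members called in Tg-RKIP against FVB, the 2 groups did not overlap, which held for 75.7% of all genes tested.

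**Figure D1:**
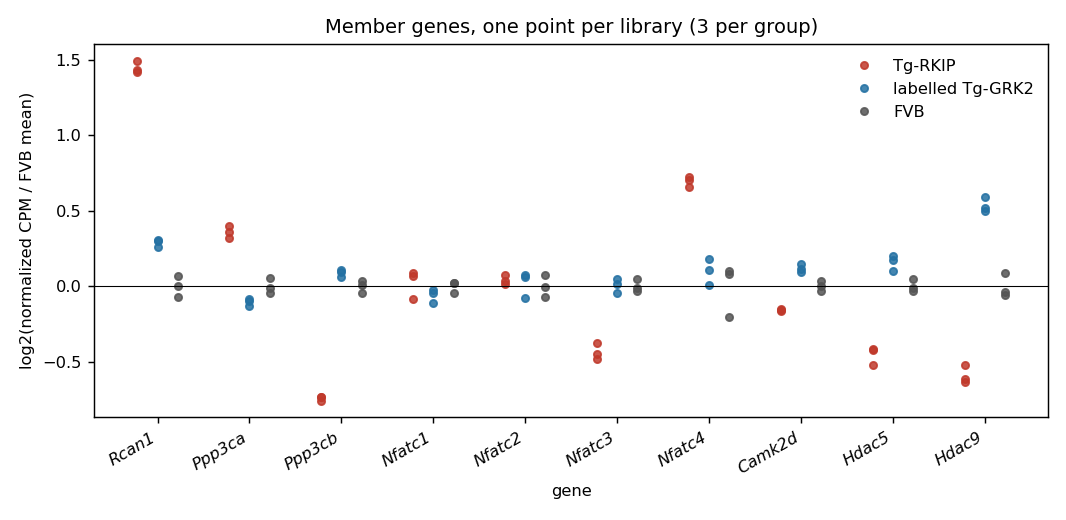
Level of each of the 10 genes in each library, as log2 of the normalized CPM over the FVB mean of that gene, with 1 point per library and 3 libraries per group. Rcan1 and Nfatc4 are highest in Tg-RKIP, Ppp3cb is lowest there, and Hdac9 lies above FVB in the Tg-GRK2-labelled libraries and below FVB in Tg-RKIP.

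Rcan1 (chromosome 16, 92188841 to 92267755, minus strand), the calcineurin regulator, showed the widest separation of the 10. It had 203, 201 and 212 normalized CPM in Tg-RKIP, 93.1, 90.0 and 92.5 in the Tg-GRK2-labelled ones, and 71.6, 79.0 and 75.2 in FVB. All 3 groups were apart, with FVB lowest and Tg-RKIP highest. Tg-RKIP exceeded FVB 2.72-fold, a log2 fold change of 1.45 (standard error, SE, 0.03, with an adjusted p = 1.11e-20, edgeR), and 16.4% of all genes tested were called with a change of at least 2-fold. The libraries labelled Tg-GRK2 exceeded FVB 1.22-fold (log2 fold change 0.29, SE 0.03, adjusted p = 8.90e-07, edgeR). The difference between both Tg-labelled groups was 1.16 on the log2 scale (adjusted p = 3.05e-19, edgeR). Exact two-sided permutation tests gave p = 0.1 for each pair of groups, the smallest value that 3 libraries against 3 allow. With any 1 library left out, the log2 fold change of Tg-RKIP against FVB stayed between 1.41 and 1.48.

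Most Rcan1 reads gained in Tg-RKIP lay on the transcript that starts at exon 4. This transcript, ENSMUST00000023672, has its first exon from 92196784 to 92196965 and held 5057, 6515 and 5316 reads in Tg-RKIP, 1415, 1430 and 1824 in the Tg-GRK2-labelled libraries, and 1264, 1527 and 1526 in FVB. Tg-RKIP lay above both other groups, which overlapped. Scaled within the fit of all transcripts, the exon 4 transcript was 3.10-fold higher in Tg-RKIP than in FVB (log2 fold change 1.63, SE 0.08, adjusted p = 2.52e-06, edgeR over the 34991 transcripts tested, of which 34% were called). The share of transcripts called was 3.42% for the Tg-GRK2-labelled libraries against FVB and 37% between the Tg-labelled groups. In the Tg-GRK2-labelled libraries it was not distinguishable from FVB, with a log2 fold change of 0.02 and a 95% interval from -0.14 to 0.18. Expressed per length, it had 141 ± 5.06 TPM in Tg-RKIP, 36.3 ± 2.40 TPM in the Tg-GRK2-labelled libraries and 34.8 ± 3.64 TPM in FVB (SD, n = 3 each).

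The transcript that starts at exon 1, ENSMUST00000060005, has its first exon from 92262721 to 92263034. It held 1210, 1423 and 1052 reads in Tg-RKIP, 1078, 918 and 972 in the Tg-GRK2-labelled libraries, and 526, 703 and 316 in FVB. Here the Tg-labelled groups overlapped in normalized CPM, and FVB lay below them. In TPM they did not overlap, with 28.9 ± 1.97 in Tg-RKIP, 21.9 ± 2.49 in the Tg-GRK2-labelled libraries and 11.6 ± 3.61 in FVB (SD, n = 3 each). Tg-RKIP against FVB gave a log2 fold change of 0.94 (SE 0.22, adjusted p = 0.0113, edgeR over transcripts). The libraries labelled Tg-GRK2 against FVB gave 0.88 (SE 0.22), which did not pass the threshold (adjusted p = 0.0836, edgeR), although the values did not overlap. Between the Tg-labelled groups the difference was 0.06, with a 95% interval from -0.35 to 0.48. FVB replicate 3 was the lowest, at 316 reads. Without it the log2 fold change of Tg-RKIP against FVB was 0.71.

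The balance of the starts separated the Tg-labelled groups from each other. Transcripts that start at exon 4 took 80.7%, 81.8% and 83.5% of the Rcan1 reads in Tg-RKIP and 56.8%, 60.9% and 65.2% in the Tg-GRK2-labelled libraries. In FVB the shares were 70.6%, 68.4% and 82.8%, and the last of these lay inside the Tg-RKIP range. The permutation test of the share gave p = 0.1 between the Tg-labelled groups and between the Tg-GRK2-labelled libraries and FVB, and p = 0.3 between Tg-RKIP and FVB (exact, two-sided). Both transcripts share their remaining exons, so most 50-base reads fit either one and were divided between them by the counting, whose rule is not given in the sources used here. The summed gene value does not depend on that division.

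**Figure D2:**
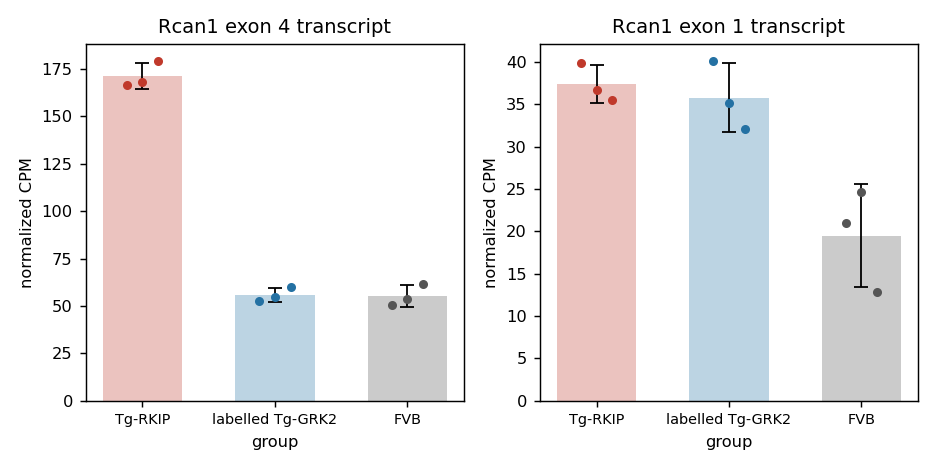
Normalized CPM of the exon 4 and exon 1 transcripts of Rcan1 by group, with points for libraries, bars for means and error bars for SD (n = 3). The exon 4 transcript is high in Tg-RKIP only, at 166 to 179 against 50.3 to 61.7 in FVB, whereas the exon 1 transcript lies at 32.1 to 40.1 in both Tg-labelled groups and at 12.8 to 24.7 in FVB.

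The calcineurin A genes, which encode the catalytic subunit, moved in opposite directions in Tg-RKIP. Ppp3ca (chromosome 3, 136375885 to 136643488, plus strand), the alpha form, had 136, 140.1 and 144 normalized CPM in Tg-RKIP and 113, 106 and 108 in FVB. Ppp3cb (chromosome 14, 20549432 to 20596641, minus strand), the beta form, had 63.8, 63.9 and 62.7 in Tg-RKIP and 109, 103 and 107 in FVB. Neither pair of groups overlapped. Ppp3ca rose with a log2 fold change of 0.36 (SE 0.03, adjusted p = 1.04e-10, edgeR), and Ppp3cb fell, with -0.74 (SE 0.03, adjusted p = 3.14e-16, edgeR). In the Tg-GRK2-labelled libraries, Ppp3ca lay at 99.8 to 103 normalized CPM and Ppp3cb at 110.5 to 114, with small log2 fold changes against FVB of -0.10 (adjusted p = 0.00914, edgeR) and 0.09 (adjusted p = 0.0178, edgeR). Both small calls were lost when single libraries were left out, Ppp3ca without the first FVB library (-0.08) and Ppp3cb without the first or second library labelled Tg-GRK2 (0.08 for each) or without the second FVB library (0.07).

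A ratio within a library does not depend on how libraries are scaled. The ratio of Ppp3ca to Ppp3cb in TPM was 1.49, 1.54 and 1.58 in Tg-RKIP, 0.700, 0.666 and 0.720 in the Tg-GRK2-labelled libraries, and 0.753, 0.783 and 0.763 in FVB. The alpha form was thus the more abundant of both in Tg-RKIP hearts and the less abundant in the others. In reads, the mean ratio was 2.21 ± 0.0780 in Tg-RKIP and 1.03 ± 0.0123 in FVB (SD, n = 3 each). The exact permutation test gave p = 0.1 for each. The 3 calcineurin A genes summed to 112 ± 1.17 TPM in Tg-RKIP, 108 ± 1.39 TPM in the Tg-GRK2-labelled libraries and 105 ± 2.32 TPM in FVB (SD, n = 3 each).

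A pair of coding transcripts of Ppp3ca moved in opposite directions by the reads counted on each. The span of one lies inside that of the other, and how the counting divided reads that fit both is not given. ENSMUST00000070198, the main one, held 3971, 5184 and 4097 reads in Tg-RKIP and 2569, 2566 and 2314 in FVB, a log2 fold change of 0.49 (adjusted p = 0.000183, edgeR over transcripts). ENSMUST00000056758, which has 14 exons in place of 13, held 243, 358 and 229 reads in Tg-RKIP and 265, 428 and 340 in FVB, with a log2 fold change of -0.65 (adjusted p = 0.0185, edgeR over transcripts). The ratio of Rcan1 to the 3 calcineurin A genes in TPM was 1.51 ± 0.0307 in Tg-RKIP, 0.537 ± 0.0117 in the Tg-GRK2-labelled libraries and 0.440 ± 0.0292 in FVB (SD, n = 3 each). In Tg-RKIP hearts there was more Rcan1 than calcineurin A transcript per length, and in the other groups less.

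Of the NFAT genes, which encode the calcium-responsive transcription factors, Nfatc4 rose and Nfatc3 fell in Tg-RKIP, while Nfatc1 and Nfatc2 did not pass the threshold in any comparison. Nfatc4 (chromosome 14, 56060601 to 56071400, plus strand) had 8.81, 8.92 and 8.51 normalized CPM in Tg-RKIP, 5.82, 6.13 and 5.43 in the Tg-GRK2-labelled libraries, and 5.72, 5.80 and 4.69 in FVB. Tg-RKIP stood above the others, which overlapped. Its log2 fold change against FVB was 0.69 (SE 0.09, adjusted p = 5.42e-07, edgeR), with no call in the Tg-GRK2-labelled libraries (0.09, 95% interval from -0.10 to 0.29). Nfatc3 (chromosome 8, 106785472 to 106857169, plus strand) had 30.5, 29.0 and 28.3 normalized CPM in Tg-RKIP, 40.0, 38.4 and 40.9 in the Tg-GRK2-labelled libraries, and 38.6, 40.8 and 39.2 in FVB. It was lower in Tg-RKIP than in FVB with a log2 fold change of -0.44 (SE 0.04, adjusted p = 2.65e-09, edgeR), and the Tg-GRK2-labelled libraries differed from FVB by 0.01, with a 95% interval from -0.07 to 0.09. The Nfatc3 call was lost with library size as the only scaling (-0.06) and on log2(TPM + 0.1), where it was -0.03.

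Nfatc1 (chromosome 18, 80649420 to 80756286, minus strand), known for its role in heart valves and T cells, had 23.4, 23.7 and 21.1 normalized CPM in Tg-RKIP, 21.9, 21.6 and 20.7 in the Tg-GRK2-labelled libraries, and 22.7, 22.7 and 21.6 in FVB. Nfatc2 (chromosome 2, 168318330 to 168443577, minus strand), which is abundant in T cells, had 15.5, 15.3 and 15.9, then 15.9, 15.8 and 14.4, then 15.95, 15.1 and 14.4 in the same order. For both genes all groups overlapped. The log2 fold change of Tg-RKIP against FVB was 0.03 for Nfatc1 (95% interval from -0.07 to 0.13) and 0.04 for Nfatc2 (95% interval from -0.08 to 0.15). Both were called at 0.40 and 0.41 with library size only, and at 0.20 and 0.21 with library size outside the mitochondria. Within the family, which no scaling affects, Nfatc4 took 11.5% ± 0.181 of the reads of the 4 genes in Tg-RKIP, 7.04% ± 0.413 in the Tg-GRK2-labelled libraries and 6.55% ± 0.578 in FVB (SD, n = 3 each). The share of Nfatc3 was 38.3% ± 0.642 in Tg-RKIP, 48.3% ± 1.77 in the Tg-GRK2-labelled libraries and 48.0% ± 1.31 in FVB. For both shares the exact permutation test gave p = 0.1 between Tg-RKIP and FVB.

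Camk2d (chromosome 3, 126389951 to 126639975, plus strand), the main cardiac CaMKII gene, differed little between groups. It had 189, 188 and 190.3 normalized CPM in Tg-RKIP, 228, 225 and 233 in the Tg-GRK2-labelled libraries, and 215, 206 and 211 in FVB. None of the groups overlapped, with Tg-RKIP lowest. The log2 fold change was -0.16 in Tg-RKIP (SE 0.02, adjusted p = 1.12e-06, edgeR) and 0.12 in the Tg-GRK2-labelled libraries (SE 0.02, adjusted p = 2.27e-04, edgeR), each against FVB. The direction in Tg-RKIP depended on the scaling, being 0.22 with library size only and 0.06 on log2(TPM + 0.1). Among the 4 CaMKII genes, Camk2d took 65.3% ± 0.602 of the reads in Tg-RKIP and 62.1% ± 0.250 in FVB (SD, n = 3 each, exact permutation test, p = 0.1).

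Alternative exons set the form of CaMKII delta. Transcripts with the 33-base exon (126596586 to 126596618), which carries the nuclear localisation signal printed above, held 52, 114 and 76 reads in Tg-RKIP. They held 754, 793 and 612 reads in the Tg-GRK2-labelled libraries and 147, 489 and 500 in FVB. As a share of Camk2d reads, this was 0.891%, 1.53% and 1.33% in Tg-RKIP, 12.3%, 13.5% and 8.67% in the Tg-GRK2-labelled libraries, and 2.73%, 8.39% and 9.67% in FVB. Tg-RKIP lay below both other groups, which overlapped. The exact permutation test gave p = 0.1 for Tg-RKIP against either group and p = 0.2 for the Tg-GRK2-labelled libraries against FVB. The first FVB library, with 147 reads, lay nearer to Tg-RKIP than the other FVB libraries did. This share sums a pair of transcripts. The coding one, ENSMUST00000106401, held 0, 43 and 15 reads in Tg-RKIP, 597, 616 and 511 in the Tg-GRK2-labelled libraries, and 14, 322 and 352 in FVB. Its first FVB library lay inside the Tg-RKIP range, and its call rested on the other two (log2 fold change -3.96, SE 1.25, adjusted p = 0.0432, edgeR over transcripts). The other, ENSMUST00000167985, is a short transcript with a retained intron, and it held 52, 71 and 61 reads in Tg-RKIP against 133, 167 and 148 in FVB, without overlap (log2 fold change -1.61, adjusted p = 0.00218, edgeR over transcripts).

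The main Camk2d transcript, with the 42-base exon alone (the delta-9 form), took 77.3% ± 1.17 of Camk2d reads in Tg-RKIP, 69.0% ± 0.940 in the Tg-GRK2-labelled libraries and 75.7% ± 2.77 in FVB (SD, n = 3 each). It differed from FVB in neither Tg-labelled group past the threshold, with log2 fold changes of -0.09 (adjusted p = 0.0898, edgeR over transcripts) and -0.01. Transcripts with both the 60-base and the 42-base exon (the delta-A form) took 14.1% ± 0.989 in Tg-RKIP and 10.2% ± 1.91 in FVB, without overlap. Single transcripts of this form went different ways, as ENSMUST00000171289 held no read in Tg-RKIP and 104, 187 and 1 in FVB, and ENSMUST00000106402 held 250, 0 and 333 reads in Tg-RKIP and none in FVB. Most reads of 50 bases miss these exons, so the shares again rest on how the counting divided reads.

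The class IIa histone deacetylases Hdac5 and Hdac9, repressors of MEF2, were lower in Tg-RKIP and higher in the Tg-GRK2-labelled libraries than in FVB by gene counts, which for Hdac5 did not hold in TPM. Hdac9 (chromosome 12, 34097579 to 34967094, minus strand) had 19.1, 19.4 and 20.6 normalized CPM in Tg-RKIP, 42.5, 41.96 and 44.6 in the Tg-GRK2-labelled libraries, and 31.5, 28.5 and 28.9 in FVB. FVB lay between the Tg-labelled groups without overlap. The log2 fold change against FVB was -0.59 in Tg-RKIP (SE 0.05, adjusted p = 4.08e-10, edgeR) and 0.54 in the Tg-GRK2-labelled libraries (SE 0.04, adjusted p = 5.73e-09, edgeR). The direct comparison of Tg-RKIP with the Tg-GRK2-labelled libraries gave -1.13 (SE 0.05, adjusted p = 1.06e-15, edgeR). Of all genes tested, 1.58% were called in the Tg-GRK2-labelled libraries with a change of at least 2-fold, a size that Hdac9 did not reach at 1.45-fold. The fall of Hdac9 in Tg-RKIP was smaller with library size only, at -0.22.

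Most of the change of Hdac9 was counted on one short transcript, ENSMUST00000110819, which has an upstream first exon (34578599 to 34578873). It held 67, 77 and 128 reads in Tg-RKIP, 549, 489 and 648 in the Tg-GRK2-labelled libraries, and 225, 311 and 264 in FVB. FVB again lay between both Tg-labelled groups, without overlap. Its log2 fold change was -1.85 in Tg-RKIP (SE 0.28, adjusted p = 0.00144, edgeR over transcripts) and 0.99 in the Tg-GRK2-labelled libraries, which did not pass (SE 0.27, adjusted p = 0.116, edgeR). Its share of Hdac9 reads was 11.4%, 10.04% and 20.6% in Tg-RKIP, 48.2%, 44.7% and 48.1% in the Tg-GRK2-labelled libraries, and 28.5%, 38.6% and 37.3% in FVB (exact permutation test, p = 0.1 for each pair of groups). The short transcript with the downstream first exon, ENSMUST00000239340, held 410, 549 and 389 reads in Tg-RKIP and 479, 405 and 351 in FVB, and passed the threshold in neither comparison with FVB. Long Hdac9 transcripts held 99 to 141 reads in Tg-RKIP, 82 to 121 in the Tg-GRK2-labelled libraries and 82 to 90 in FVB. Their share of Hdac9 reads was 17.7% ± 1.48, 8.21% ± 2.14 and 11.3% ± 1.03 in this order (SD, n = 3 each). Most Hdac9 reads thus lay on short transcripts, and what the protein of these transcripts does was not examined.

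Hdac5 (chromosome 11, 102085258 to 102120992, minus strand) had 61.3, 57.0 and 60.9 normalized CPM in Tg-RKIP, 94.1, 87.8 and 92.1 in the Tg-GRK2-labelled libraries, and 80.9, 84.4 and 80.0 in FVB. No group overlapped another, and the log2 fold changes against FVB were -0.46 (SE 0.03, adjusted p = 7.71e-11, edgeR) and 0.16 (SE 0.03, adjusted p = 0.00105, edgeR). The Hdac5 call of the Tg-GRK2-labelled libraries was lost on log2(TPM + 0.1), at 0.11 (adjusted p = 0.317, limma). By the most abundant transcript the value was -0.71 (adjusted p = 0.00211, edgeR). That transcript is ENSMUST00000150965, which is short and retains an intron. The coding transcript with the most reads, ENSMUST00000107152, was called in neither comparison with FVB. Its log2 fold change was 0.39 in the Tg-GRK2-labelled libraries and -0.31 in Tg-RKIP. For the summed gene, levels per length gave the opposite order to counts in Tg-RKIP. Hdac5 had 58.5 ± 4.34 TPM in Tg-RKIP against 41.9 ± 2.90 TPM in FVB (SD, n = 3 each), which amounts to 0.48 on log2(TPM + 0.1). ENSMUST00000150965, of 1008 bases, weighs more per read in TPM because of its length. It had 24.4 ± 0.711 TPM in Tg-RKIP, against 12.8 ± 0.925 TPM in the FVB libraries. Its log2 fold change was 0.55 (adjusted p = 0.00359, edgeR over transcripts), while ENSMUST00000124077, of 3872 bases and annotated for nonsense-mediated decay, had -1.78 (adjusted p = 0.00145, edgeR over transcripts). On log2(TPM + 0.1) the median of all genes was itself 0.43, and what turned the direction of Hdac5 was not tested.

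**Figure D3:**
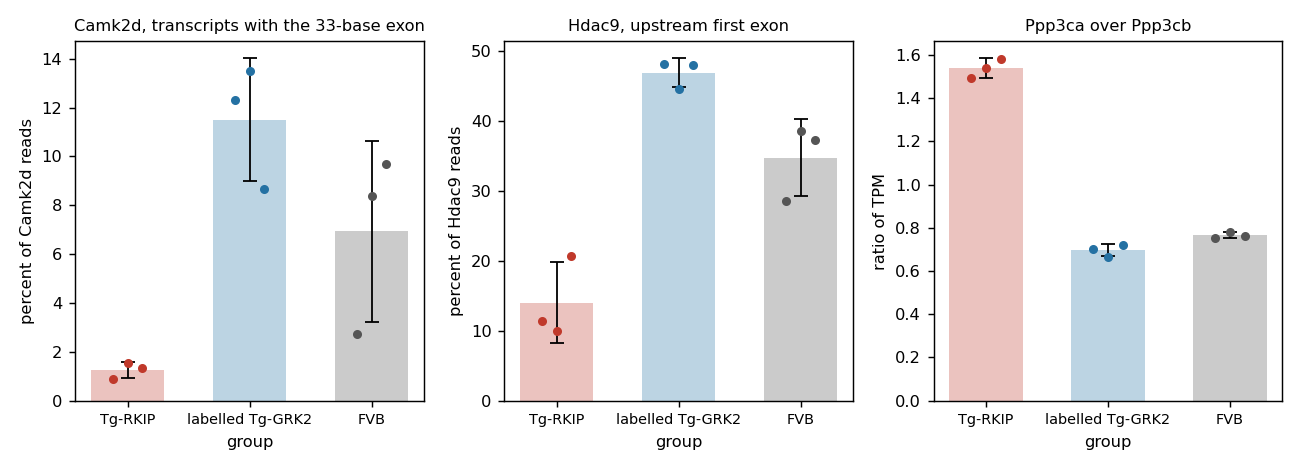
Share of Camk2d reads on transcripts with the 33-base exon, share of Hdac9 reads on the short transcript with the upstream first exon, and ratio of Ppp3ca to Ppp3cb in TPM, by group. Points are libraries, bars are means and error bars are SD (n = 3). Both shares are lowest in Tg-RKIP, and the ratio is above 1 in Tg-RKIP only.

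The level of the fold changes of Tg-RKIP depended on the scaling, and the change from counts to TPM shifted single genes unequally. Over all genes the median log2 fold change was 0.01 with TMM, 0.18 for scaling to reads outside the mitochondria (an alternative chosen after seeing the data), 0.38 with library size only, and 0.43 on log2(TPM + 0.1). Of the genes called, 49.8% were higher in Tg-RKIP with TMM and 78.6% with library size only. Of the members, 9 were called with library size only, 6 higher and 3 lower. Rcan1 (1.45 to 1.87), Ppp3ca (0.36 to 0.73) and Nfatc4 (0.69 to 1.09) were higher, and Ppp3cb (-0.74 to -0.33) and Hdac9 (-0.59 to -0.19) lower, under each of these 4 scalings. Read against the median of the same scaling, Camk2d and Nfatc3 lay below it each time. The difference in mitochondrial share moved with these shifts, and its part in single results was not tested.

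**Figure D4:**
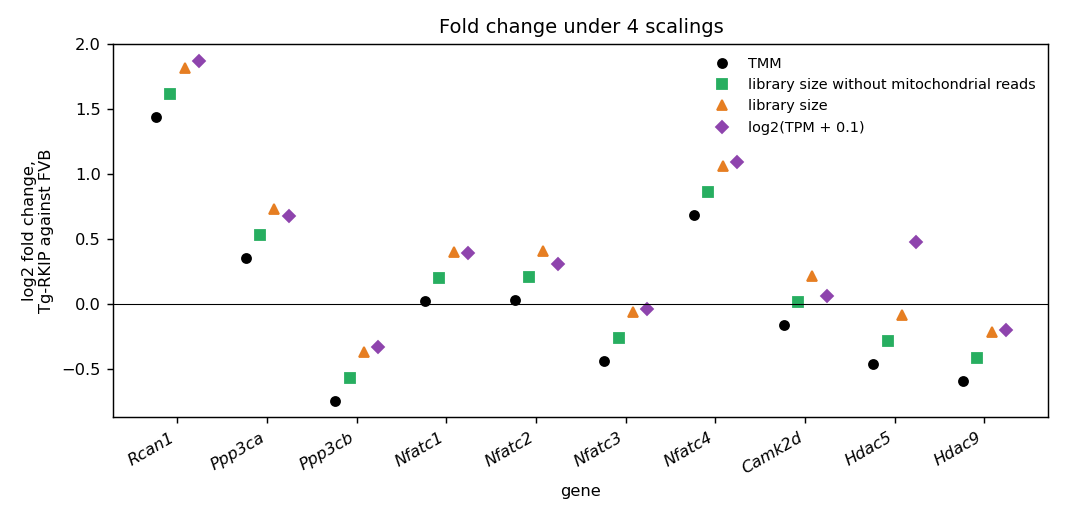
Log2 fold change of Tg-RKIP against FVB for each gene under 4 scalings of the libraries, with 1 symbol per scaling. The values of Camk2d and Hdac5 lie on both sides of 0, Nfatc3 lies below 0, and Rcan1, Ppp3ca and Nfatc4 lie above 0 throughout.

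Levels of different genes were compared in TPM, which corrects for length. In FVB hearts the order was Camk2d (90.1 ± 1.28 TPM), Ppp3cb (47.0 ± 1.44), Rcan1 (46.4 ± 2.08), Hdac5 (41.9 ± 2.90), Ppp3ca (36.0 ± 0.405), Nfatc3 (9.22 ± 0.202), Hdac9 (9.12 ± 0.642), Nfatc1 (7.07 ± 0.520), Nfatc2 (6.26 ± 0.524) and Nfatc4 (2.27 ± 0.292, SD, n = 3 each). The ranges of Ppp3cb, Rcan1 and Hdac5 overlapped from each to the next, as did those of Nfatc3 and Hdac9 and of Nfatc1 and Nfatc2. In Tg-RKIP hearts Rcan1 was the most abundant of the 10, at 170.0 ± 3.45 TPM, ahead of Camk2d at 94.0 ± 2.35 TPM without overlap. Hdac5 and Ppp3ca followed with overlapping ranges, at 58.5 ± 4.34 and 57.6 ± 0.995 TPM, and Ppp3cb had 37.5 ± 0.554 TPM. In the Tg-GRK2-labelled libraries the order began with Camk2d at 103 ± 0.939 TPM and Rcan1 at 58.2 ± 0.575 TPM, and no neighbours in the order overlapped.

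**Figure D5:**
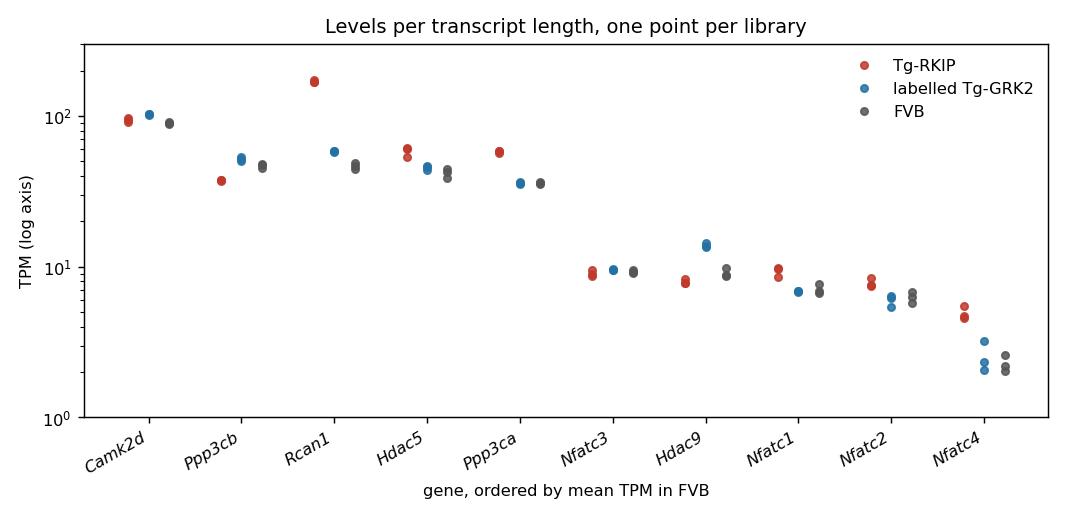
TPM of each gene in each library on a log axis, ordered by the mean in FVB, with 3 points per group. Rcan1 is the third gene in FVB and the highest in Tg-RKIP, and the 4 NFAT genes and Hdac9 lie at 14.3 TPM or less in all libraries.

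Another 64 genes of the pathway were listed by role, and all were tested. In Tg-RKIP against FVB, 26 rose and 29 fell, that is 55 called, where 73.9% of all genes were called, 36.8% higher and 37.1% lower. In the Tg-GRK2-labelled libraries 27 were called, 17 higher and 10 lower, where 24.5% of all genes were called, 12.2% in each direction. With library size only, 42 of them rose and 13 fell in Tg-RKIP, and the counts by list that follow are those with TMM. Among 13 subunits and regulators of calcineurin, 4 rose and 7 fell (median log2 fold change -0.13). Cib1, which anchors calcineurin at the sarcolemma, rose (0.76). Ppp3cc, another catalytic gene, (-0.81) and the scaffold Akap5 (-0.83) fell. Akap5 was low, with means of 1.88 normalized CPM in Tg-RKIP and 3.33 in FVB. Myoz2, a calcineurin-binding protein of the Z-disc and the most abundant of the list, was called lower at -0.40 with TMM, but had -0.02 with library size only. The ratio of Rcan1 to its paralog Rcan2 in TPM was 0.894 ± 0.0214 in Tg-RKIP and 0.199 ± 0.0113 in FVB (SD, n = 3 each).

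Among 14 kinases and partners of NFAT, 3 rose and 9 fell (median -0.25), where 36.8% of all genes tested rose and 37.1% fell. Homer3, a scaffold that competes with calcineurin for NFAT, rose (0.67), with means of 12.1 normalized CPM in Tg-RKIP and 7.57 in FVB. The more abundant Homer2 of the same list fell (-0.59), with 52.4 in Tg-RKIP and 79.1 in FVB. Nfat5 (-0.66) and the NFAT kinase Mapk8 (-0.62) fell as well. Csnk1a1, an NFAT kinase and the most abundant of this list, was called lower at -0.14 with TMM and called higher at 0.23 with library size only. Among 10 CaM kinases and CaMKII inhibitors, 6 rose and 3 fell (median 0.51). Camk2b, the beta form of CaMKII, had 3.53, 4.19 and 4.69 normalized CPM in Tg-RKIP and 18.4, 17.6 and 17.1 in FVB, a 4.27-fold lower level (log2 fold change -2.10, adjusted p = 2.69e-16, edgeR). The genes of the CaMKII inhibitor proteins rose, Camk2n1 with a log2 fold change of 1.17 and Camk2n2 with 2.93. Camk2n2 was low, with means of 6.11 normalized CPM in Tg-RKIP and 0.801 in FVB, and had 2.39 on log2(TPM + 1). Camk2n1 had 82.0, 77.3 and 78.3 normalized CPM in Tg-RKIP and 33.4, 36.4 and 35.9 in FVB, and the Tg-GRK2-labelled libraries had 30.8 to 32.9. Camk1, the most abundant of the list, rose as well (0.40).

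Among 11 class IIa deacetylases, their kinases and MEF2 genes, 2 rose and 6 fell (median -0.10). For this and the next lists, 36.8% of all genes tested rose in Tg-RKIP and 37.1% fell. Mef2a, a transcription factor held by these deacetylases, had 125, 126 and 129 normalized CPM in Tg-RKIP, 273, 280.2 and 284 in the Tg-GRK2-labelled libraries, and 254, 254 and 253 in FVB. Its level in Tg-RKIP was thus 2.00-fold lower than in FVB (adjusted p = 1.40e-20, edgeR). Hdac4 fell as well (-0.84). Mef2c was called lower with TMM (-0.37), with 0.01 for library size only, and Camta1, the most abundant of the list, rose (0.26). Among 10 genes of calcium entry, 5 rose and 4 fell (median 0.13). Orai2, a store-operated calcium channel, rose (1.46), and the voltage-gated channels Cacna1c (-1.29) and Cacna1h (-1.39) fell. Orai2 and Cacna1h were low, with means of 4.18 and 1.06 normalized CPM in Tg-RKIP and 1.51 and 2.85 in FVB. Cacna1c had -0.28 on log2(TPM + 0.1), and Cacna1h had -3.04 by its most abundant transcript. In the Tg-GRK2-labelled libraries these 10 genes had log2 fold changes between -0.35 and 0.23. All 6 hypertrophy marker genes rose in Tg-RKIP (median 1.32), by 2.66 for Acta1, 1.88 for Nppa and 1.51 for Nppb. In the Tg-GRK2-labelled libraries, 4 of these 6 were called higher and 2 lower, with log2 fold changes from -0.17 to 0.29. There 12.2% of all genes were called in each direction. The study used Nppa and Nppb as markers in these same hearts, so this list is no independent evidence of direction.

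The 3 genes whose profile over the 9 libraries was most like that of Rcan1 were Fstl1, Thy1 and Slc1a1. Likeness was the Euclidean distance between centred log2 values, over 12517 other genes with a mean of at least 50 reads, and the distances were 0.145, 0.147 and 0.147. Fstl1, a secreted glycoprotein, had mean levels of 343, 146 and 128 normalized CPM in Tg-RKIP, the Tg-GRK2-labelled libraries and FVB. Thy1, a surface glycoprotein, had 26.7, 12.4 and 10.3, and Slc1a1, a glutamate transporter, had 7.02, 3.02 and 2.58 in the same order.

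Markers of the cells of the heart were read beside these genes. In Tg-RKIP against FVB, 73.9% of all genes tested were called, 36.8% higher and 37.1% lower. Sums are in TPM, and on log2(TPM + 0.1) the median log2 fold change of all genes was 0.43. Summed cardiomyocyte markers lay at 34331 to 36194 TPM in all libraries. By normalized counts 5 of the 6 were lower in Tg-RKIP than in FVB, with a median log2 fold change of -0.93. All 6 fibroblast markers rose in Tg-RKIP, with sums of 2124 to 2127 TPM against 843 to 877 TPM in FVB. Of the macrophage markers 5 of 6 rose and 1 fell (273 to 280.1 against 111 to 112 TPM). Of the smooth muscle markers 5 of 6 rose and 1 fell (2541 to 2558 against 1044 to 1078 TPM). Of the endothelial markers 3 of 6 rose and 3 fell (368 to 372 against 257 to 264 TPM). By normalized counts the median log2 fold changes of these lists were 0.73, 1.06 and -0.15, in this order. All 6 adipocyte markers rose as well (1006 to 1032 against 602 to 633 TPM). T cell markers, read beside Nfatc1 and Nfatc2, were low (8.24 to 12.7 against 5.13 to 5.40 TPM). In Tg-RKIP 7 of these 8 were higher and 1 lower. All 5 markers of B and plasma cells were higher (26.2 to 28.0 against 2.33 to 2.61 TPM). Neuron markers, with Camk2a and Camk2b also known from neurons, had 14.8 to 16.8 against 8.10 to 8.33 TPM, and 2 of 5 tested passed. Skeletal muscle markers summed to at most 7.21 TPM in any library, and 2 of the 3 tested were higher in Tg-RKIP than in FVB. Airway markers summed to 85.9 to 91.8 TPM in Tg-RKIP and 182 to 192 TPM in the Tg-GRK2-labelled libraries, and 5 of the 6 had no read in FVB. All 4 cartilage markers tested rose in Tg-RKIP, and the list summed to 324 to 331 TPM in Tg-RKIP and to 9.88 to 10.6 TPM in the other groups. The part of these cells in the results on the 10 genes was not tested, and in whole hearts fewer cells of a type and less RNA per cell cannot be told apart.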

How the data were processed

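The cardiac transcriptome of 9 libraries (3 per group) was read from single reads of 50 bases. The authors deposited raw read counts per transcript for 127558 Ensembl transcripts, and the deposited TPM values equal those recomputed from these counts and transcript lengths to within 5.50e-06. The build is GRCm39 per the submitters' processing notes. The aligner, the counting program and the rule for shared reads are not given in the sources used here. Groups and replicate numbers came from the sample titles.

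Transcripts with the same gene name were added up, in counts and in TPM. The tests used edgeR 4.0.16 under R 4.3.3 (TMM, filterByExpr, glmQLFit and glmQLFTest, 1 mean per group, all 9 libraries), adjusted by Benjamini-Hochberg over 15504 genes or 34991 transcripts. The biological coefficient of variation was 2.86% for genes and 58.7% for transcripts. Intervals are the estimate ± 1.96 standard errors. Single values were compared by exact two-sided permutation tests, whose smallest p is 0.1 here. The scripts were tested on simulated data. Promoters came from RefSeq and coding sequences from GENCODE M21, both on GRCm38, and no coordinate was converted between builds. Exons of Nfatc3 overlap those of Esrp2 on the opposite strand, which held at most 14 reads.

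All 10 members were named. Of each pathway list, up to 3 genes with the largest change among those called in Tg-RKIP against FVB with a mean of at least 50 reads in the higher group were named, plus the gene of highest TPM, and also the 3 genes most like Rcan1. The transcripts of members other than Rcan1, and the genes Rcan2 and Homer2, were chosen after their values were seen. The members and lists were chosen with earlier results of these data known. Alternatives were DESeq2 1.42.0 and its size factors, library size with and without mitochondrial reads, other filters, the 2 groups alone, a replicate block, each library left out, limma 3.58.1 on log2(TPM + 0.1) or log2(TPM + 1) where 3 or more libraries reached 1 TPM, and the most abundant transcript of each gene.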

Additional observations from a re-analysis of the deposited data

How the results depend on the processing

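With the replicate number as a block, the counts called were the same, namely 8 members and 55 pathway genes in Tg-RKIP against FVB and 6 and 27 in the Tg-GRK2-labelled libraries. The exon 4 transcript of Rcan1 then had 1.64 and the exon 1 transcript 0.97 in Tg-RKIP against FVB. Deviations from the group means correlated at -0.04 to 0.05 between equal numbers and at -0.03 to 0.06 between unequal ones, without a sign of pairing. These deviations were close to what counting alone gives, so the check cannot exclude a pairing. With 1 library left out at a time, 8 members were called in Tg-RKIP against FVB each time, 5 to 6 in the Tg-GRK2-labelled libraries and 8 to 9 between the Tg-labelled groups, and the pathway genes called ranged over 53 to 55, 23 to 27 and 53 to 56. Of the members' log2 fold changes, 258 of 270 with a library left out and 280 of 330 under the other settings kept both direction and side of the threshold. Against FVB, the Tg-GRK2-labelled libraries gave 1 member called in place of 6 with the most abundant transcript of each gene, and 12 pathway genes in place of 27, with 13 on log2(TPM + 0.1) and 14 on log2(TPM + 1).

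Directions turned as follows, and the cause was not tested. In Tg-RKIP against FVB, Camk2d had 0.22 with library size only, 0.019 without mitochondrial reads, 0.062 on log2(TPM + 0.1) and 0.061 on log2(TPM + 1). Hdac5 had 0.48, 0.47 and 0.47 on log2(TPM + 0.1), on log2(TPM + 1) and by its most abundant transcript, by which Nfatc2 had -0.38. In all comparisons this transcript of Hdac5 is ENSMUST00000150965, which retains an intron. Csnk1a1 had 0.23 with library size only, 0.033 without mitochondrial reads, 0.11 on both TPM scales and 0.047 by its most abundant transcript, Myoz2 had 0.017 on both TPM scales, and Mef2c had 0.0053 with library size only. In the Tg-GRK2-labelled libraries against FVB, Nfatc2 had -0.068 on log2(TPM + 0.1) and -0.059 on log2(TPM + 1), and the most abundant transcript gave -0.36 for Nfatc2, -0.017 for Nfatc4, -0.0047 for Camk2d and -0.71 for Hdac5. Between the Tg-labelled groups, Camk2d had 0.087 with library size only, Nfatc2 had -0.021 by its most abundant transcript, and Hdac5 had 0.37 and 0.36 on both TPM scales and 1.19 by its most abundant transcript. With single libraries left out, values that were not called ranged over 0 for Nfatc1 (-0.0048 to 0.076) and Nfatc2 (-0.0013 to 0.070) in Tg-RKIP against FVB, for Nfatc2 (-0.015 to 0.068), Nfatc3 (-0.014 to 0.034) and the exon 4 transcript of Rcan1 (-0.046 to 0.10) in the Tg-GRK2-labelled libraries, and for Nfatc2 (-0.035 to 0.043) and the exon 1 transcript (-0.013 to 0.15) between the Tg-labelled groups.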
